A study of Homo sapiens with 15 samples.

Results

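The 7 genes of coenzyme A (CoA) synthesis, PPCS, PANK1, PANK2, PANK3, PANK4, PPCDC and COASY, were followed through adaptation to cyclin E1 overproduction, out of 60558 genes in the table. They were taken by name. PPCS was selected on its level in adapted and recovery cells, which was low against control, so its values in these groups are given as a description with no test. RNA-seq was performed on 15 libraries of RPE1-hTERT cells, an established cell line derived from human retinal pigment epithelium and made immortal by telomerase, to ask which mRNAs differ as cells adapt to excess cyclin E1. All 15 carried a CCNE1 cDNA in the doxycycline-inducible pINDUCER20 vector, brought in by a virus, and the study isolated clones from the transduced population. Each of the 5 groups held 3 libraries, from adaptations that the study started independently. Control cells received 0 ng/ml doxycycline, and acute cells 20 ng/ml for 2 d. Crisis cells, taken when proliferation was slowest, are labelled with 15, 18 and 18 d at 20 ng/ml, and adapted cells with 39, 41 and 51 d. Recovery cells had 31, 42 and 46 d of doxycycline followed by 18, 46 and 17 d without it.

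CoA is the carrier of acetyl and other acyl groups in the citrate cycle, fatty acid metabolism and protein acetylation. Cells make it from pantothenate (vitamin B5). Pantothenate kinases, encoded by PANK1, PANK2 and PANK3, add a phosphate in the step that sets the rate of the pathway. PPCS, phosphopantothenoylcysteine synthetase, then joins the product to cysteine. PPCDC removes a carboxyl group, and COASY, a bifunctional enzyme, carries out the final steps. PANK4 resembles the kinases but lacks kinase activity and acts as a phosphatase on pathway intermediates.

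The authors gave values as TPM (transcript abundance scaled to a fixed library total), which account for transcript length, so levels of different genes can be set side by side, but which keep no record of depth. CCNE1 served as the check of the groups: it averaged 7.08 ± 0.804 TPM in control (SD, n = 3) and 151 ± 14.0 in acute cells. Crisis and adapted cells averaged 38.9 ± 6.0 and 42.8 ± 0.418 TPM, and recovery cells 5.65 ± 0.249 TPM. Of 8 markers of retinal pigment epithelium, 2 (MITF and OTX2) averaged at least 5 TPM and 5, RPE65 among them at 0 in every library, averaged under 1 TPM. The deviation of genes from their mean was related to GC content in most libraries, with a Spearman rank correlation from -0.14 to 0.70 in control, -0.45 to 0.53 in acute and -0.41 to 0.62 in crisis libraries. This correlation was -0.56 to -0.18 in adapted libraries and -0.47 to -0.28 in recovery libraries. Entries that hold 45S-like ribosomal RNA took 6.48% to 15.1% of the TPM of a library. The part of either in the results was not tested, and values after a correction for GC content are given beside the members. In bulk libraries, fewer cells that express a gene and less of its RNA per cell cannot be told apart.

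PPCS lies on chromosome 1 at chr1:42456117-42473385 on the plus strand of hg38, with 8 transcripts in GENCODE release 44. RefSeq lists 2 starts for it. A promoter is shown because PPCS is the member selected on its level and cyclin E1 with CDK2 promotes E2F-driven transcription. The stretch shown surrounds the start used by the canonical transcript (chr1:42456293-42456592, plus strand, GRCh38.p14 in RefSeq, 250 bases before the start to 50 after it). Capitals mark the only match to a set of short promoter motifs, a GC box.
PPCS promoter: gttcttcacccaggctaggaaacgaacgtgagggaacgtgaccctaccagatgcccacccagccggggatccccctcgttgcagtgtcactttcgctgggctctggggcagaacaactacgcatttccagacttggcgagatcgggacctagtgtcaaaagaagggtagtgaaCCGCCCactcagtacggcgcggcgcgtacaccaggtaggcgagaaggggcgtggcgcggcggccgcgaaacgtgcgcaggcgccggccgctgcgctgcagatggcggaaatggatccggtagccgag
This window has a GC content of 63.7%, and the GC box (GGGCGG, here on the minus strand) begins 77 bases before the start. The window of the upstream start, which overlaps this one, holds 1 GC box as well, on the plus strand. A GC box on either strand occurred in 45% of 35116 RefSeq promoter windows of the same length and in 8 of the 14 windows of the 7 genes. Neither PPCS window held CCAAT, an ETS core (CCGGAAG), the E2F forms TTTCCCGC and TTTGGCGC, the cell cycle element TTTGAA or the E-box CACGTG. These occurred in 34.6%, 10.3%, 1.63%, 0.652%, 15.2% and 7.26% of all windows. Such matches describe letters in a window and not bound sites.

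PANK1, PANK2 and PANK3 also carry microRNAs in introns, on the strand of the host gene, and these are shown because transcription of the host yields both products. In RefSeq (GRCh38.p14), miR-107 lies in PANK1 at chr10:89592756-89592778 on the minus strand. miR-103a-3p is encoded in PANK3 at chr5:168560904-168560926 on the minus strand and in PANK2 at chr20:3917541-3917563 on the plus strand. Capitals mark the seed, bases 2 to 8.
hsa-miR-107: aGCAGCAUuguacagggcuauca
hsa-miR-103a-3p: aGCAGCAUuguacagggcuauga
Both share the seed GCAGCAU. The libraries were made from mRNA, and the hairpin genes MIR107, MIR103A1 and MIR103A2 are listed at 0 TPM in every library, so the microRNAs themselves were not measured.

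PPCS was present at 19.9, 17.0 and 20.3 TPM in the 3 control libraries and at 18.6, 15.6 and 18.3 TPM in the acute libraries. The crisis libraries held 12.9, 13.0 and 11.9 TPM, the adapted libraries 9.54, 10.2 and 12.7 TPM, and the recovery libraries 11.1, 9.44 and 14.1 TPM. The 9 crisis, adapted and recovery libraries (9.44 to 14.1 TPM) thus all lay below the 6 control and acute libraries (15.6 to 20.3 TPM). Part of this split follows from the selection of PPCS on its adapted and recovery levels against control. The share of all genes split in this way was not computed. The group means of PPCS in TPM were 19.1 ± 1.80 (control, SD, n = 3), 17.5 ± 1.66 (acute), 12.6 ± 0.606 (crisis), 10.8 ± 1.67 (adapted) and 11.5 ± 2.37 (recovery). Against the control mean, the mean TPM was 8.32% lower in acute cells (change -8.32%), with overlapping groups. The changes were -33.9% for crisis, -43.2% for adapted and -39.5% for recovery cells.

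In units of log2(TPM + 1), a scale that understates changes of low genes, PPCS differed from control by -0.12 (acute), -0.56 (crisis), -0.77 (adapted) and -0.69 (recovery), each with a SE of 0.14. In the order of group means (control, acute, crisis, recovery, adapted), only acute and crisis were neighbours without overlap, with a gap of 4.87 TPM against a larger SD of 1.66 TPM. Control and acute differed by 1.59 TPM, crisis and recovery by 1.06 TPM, and recovery and adapted by 0.720 TPM, each less than the larger SD of the pair. The fit took its estimate of the spread from all 15 libraries, including those that singled out PPCS. The crisis and acute libraries themselves were apart from those, and their comparison was tested. There the log2 difference was -0.44 ± 0.14 (SE), which did not pass the test (adjusted p = 0.673 by limma with Benjamini-Hochberg adjustment, unadjusted p = 0.00542), although every crisis library lay below every acute library.

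After doxycycline was withdrawn, PPCS differed from adapted cells by less than the SD of either group: recovery minus adapted was 0.08 ± 0.14 (SE) on the log2 scale, and the groups overlapped. Low levels in both groups follow in part from the selection of PPCS on them, so their closeness is a description only. CCNE1 was at 5.65 TPM in recovery cells and 42.8 TPM in adapted cells. Among recovery libraries, the one with 46 d without doxycycline held the lowest PPCS level of all 15 libraries (9.44 TPM), and those with 18 and 17 d held 11.1 and 14.1 TPM. Among adapted libraries, those labelled with 39, 41 and 51 d held 9.54, 10.2 and 12.7 TPM. With 1 library at each time, these differences have no replicate, and the labelled days differ from those in the study's text. The spread of PPCS was wider in these groups, with coefficients of variation of 15.4% in adapted and 20.5% in recovery cells against 9.45% in control and 4.81% in crisis cells.

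**Figure D1:**
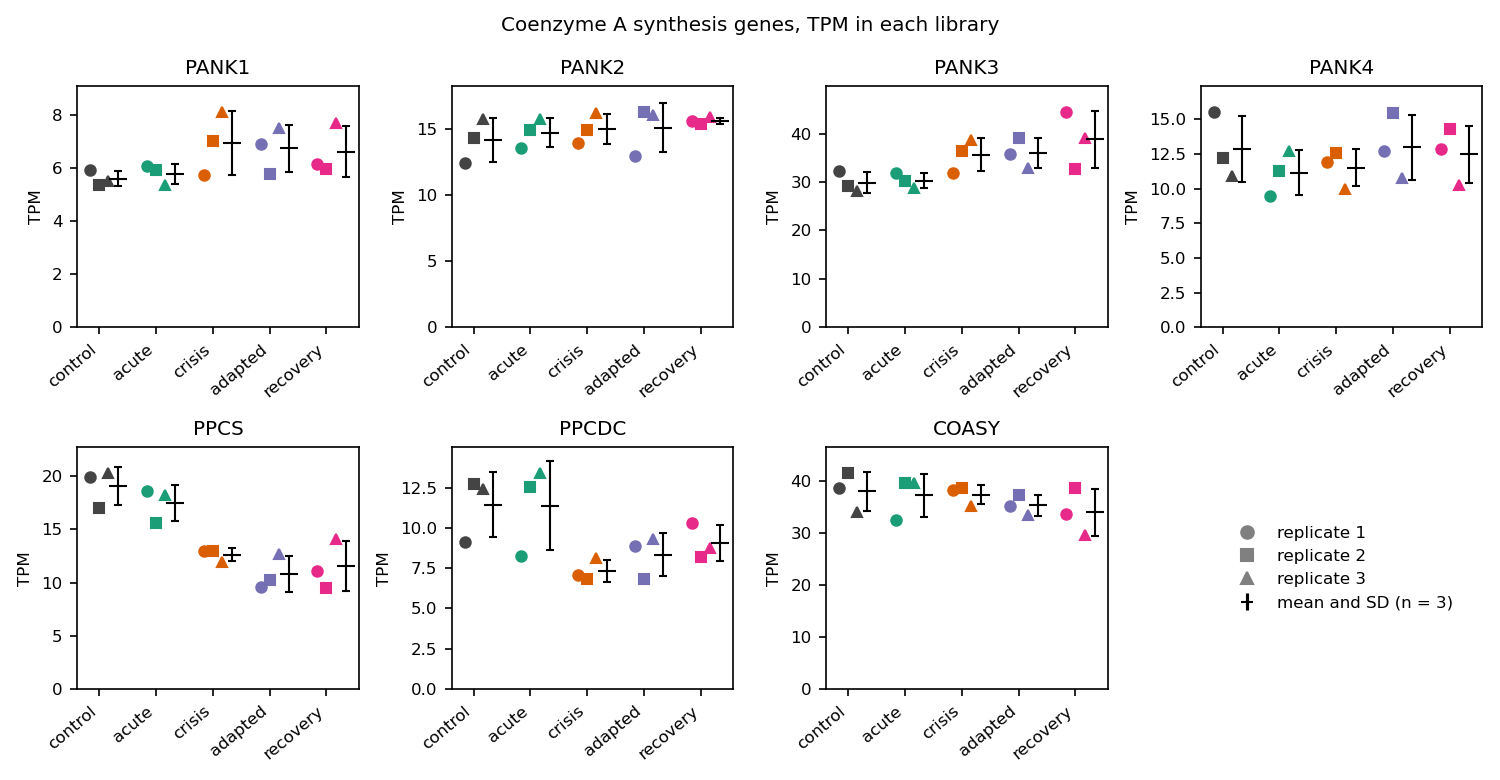
TPM (y axis, from 0, a scale for each gene) of the 7 CoA synthesis genes in the 15 libraries, by group on the x axis, with symbols for replicates and black bars for mean and SD. The PPCS libraries of crisis, adapted and recovery cells (9.44 to 14.1 TPM) sit below all control and acute libraries (15.6 to 20.3 TPM). PPCS was selected on its adapted and recovery levels against control.

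The PPCS transcript has a GC content of 44.6%, close to the median of 47.3% over the 10185 tested genes with a value, and the difference in PPCS was larger after the GC correction. On the log2 scale PPCS then stood at -0.22 (acute), -0.65 (crisis), -0.87 (adapted) and -0.84 (recovery) against control. The 9 later libraries then ranged from -1.06 to -0.58 around the control mean, and the 6 control and acute libraries from -0.35 to 0.13. The adapted and recovery values were -0.81 and -0.76 with median-of-ratios scaling. Leaving out 45S-like RNA gave -0.82 and -0.76. The lower level of PPCS in later cells was thus present under each of these scalings.

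At an adjusted p under 0.01, limma called 0 of the 7 members in crisis against acute cells, and 0 of the 6 members other than PPCS in each of the other 6 comparisons. Few genes of any kind were called: 0.049% of 10196 tested genes in acute and 0.0392% in crisis against control, and 0.049% and 0.0392% in adapted and recovery against control. In crisis against acute, adapted against acute and recovery against adapted cells, the shares were 0.00981%, 0.0196% and 0.0294%. The study reported many more genes across its time points with DESeq2, so these shares describe the limma fit alone.

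PPCDC, which acts directly after PPCS, was lower in crisis cells, although no difference passed the test. It was present at 9.10, 12.7 and 12.4 TPM in control, 8.24, 12.5 and 13.4 in acute and 7.05, 6.79 and 8.10 in crisis libraries. The adapted libraries held 8.89, 6.83 and 9.28 TPM and the recovery libraries 10.3, 8.16 and 8.74 TPM. Crisis lay below both control and acute without overlap, while adapted and recovery each overlapped with control. Against control, the difference in mean TPM was -36.0% for crisis, -27.0% for adapted and -20.6% for recovery cells. On the log2 scale, PPCDC minus control was -0.57 ± 0.17 (SE) in crisis (adjusted p = 0.264 by limma), -0.41 ± 0.17 in adapted (adjusted p = 0.199) and -0.29 ± 0.17 in recovery cells (adjusted p = 0.256), and -0.02 ± 0.17 in acute cells (adjusted p = 0.981). Crisis against acute gave -0.55 ± 0.17 (adjusted p = 0.673). After the GC correction crisis, adapted and recovery cells stood at -0.62, -0.35 and -0.25 against control. The group order of PPCDC thus differed from that of PPCS, with crisis lowest and adapted and recovery in between, although neighbours in that order overlapped. Recovery minus adapted was 0.11 ± 0.17 for PPCDC (adjusted p = 0.933).

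PANK3 was the most abundant kinase, with 57.0% to 67.2% of the summed TPM of PANK1, PANK2 and PANK3. It was present at 32.3, 29.2 and 28.2 TPM in control, 31.8, 30.3 and 28.8 in acute and 32.0, 36.3 and 38.6 in crisis libraries. The adapted libraries held 35.8, 39.2 and 32.9 TPM and the recovery libraries 44.5, 32.7 and 39.2 TPM. The adapted and recovery libraries lay above all control libraries, and the lowest crisis library lay within the control range. PANK3 minus control was 0.26 ± 0.11 (SE) in adapted (adjusted p = 0.210 by limma) and 0.36 ± 0.11 in recovery cells (adjusted p = 0.0820), beside 0.25 ± 0.11 in crisis (adjusted p = 0.434) and 0.02 ± 0.11 in acute cells (adjusted p = 0.962). The PANK3 transcript has a GC content of 36.8%, and after the GC correction the values shrank to 0.05 in adapted and 0.09 in recovery cells.

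PANK1, the least abundant member, ranged from 5.36 to 6.08 TPM in the 6 control and acute libraries and from 5.73 to 8.13 TPM in the later 9. Its recovery libraries (5.96 to 7.72 TPM) lay just above the control libraries (5.36 to 5.93 TPM), and the log2 differences from control were 0.26 (crisis), 0.22 (adapted) and 0.20 (recovery), each with a SE of 0.14 (adjusted p = 0.499, 0.35 and 0.34 by limma). After the GC correction PANK1 stood at 0.17, 0.16 and 0.09, and without recovery replicate 3 its recovery value was 0.10. PANK2, the mitochondrial form, averaged 14.1 ± 1.66 TPM in control (SD, n = 3) and 14.7 to 15.6 TPM in the other groups, all of which overlapped with control, and it lay between 0.01 and 0.10 of control (log2) after the GC correction. PANK4 averaged 11.2 to 13.0 TPM in all groups, with no group apart from another. After the GC correction it differed from control by -0.16 in crisis and 0.14 in adapted cells (log2). The sum of PANK1, PANK2 and PANK3 was 48.8 to 50.6 TPM in control, 49.8 to 51.4 in acute, 51.6 to 63.0 in crisis, 55.7 to 61.2 in adapted and 54.0 to 66.2 in recovery libraries, so that each group after the acute stage lay above control. Of single tested genes, 15.5% (crisis), 23.9% (adapted) and 28.9% (recovery) were separated from control in either direction. The sum was not tested, and the GC correction was not applied to it. PANK3, its largest part, shrank from 0.26 to 0.05 in adapted and from 0.36 to 0.09 in recovery cells after that correction (log2).

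COASY was about as abundant as PANK3, at 38.5, 41.4 and 34.0 TPM in control and 32.4, 39.5 and 39.6 TPM in acute libraries. Its crisis libraries held 38.1, 38.6 and 35.2 TPM, its adapted libraries 35.1, 37.4 and 33.4 TPM, and its recovery libraries 33.6, 38.7 and 29.5 TPM. All 5 groups overlapped. COASY minus control ranged from -0.16 ± 0.11 (SE) in recovery (adjusted p = 0.324 by limma) to -0.02 ± 0.11 in crisis cells (adjusted p = 0.949). After the GC correction its values lay between -0.03 and 0.04.

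**Figure D2:**
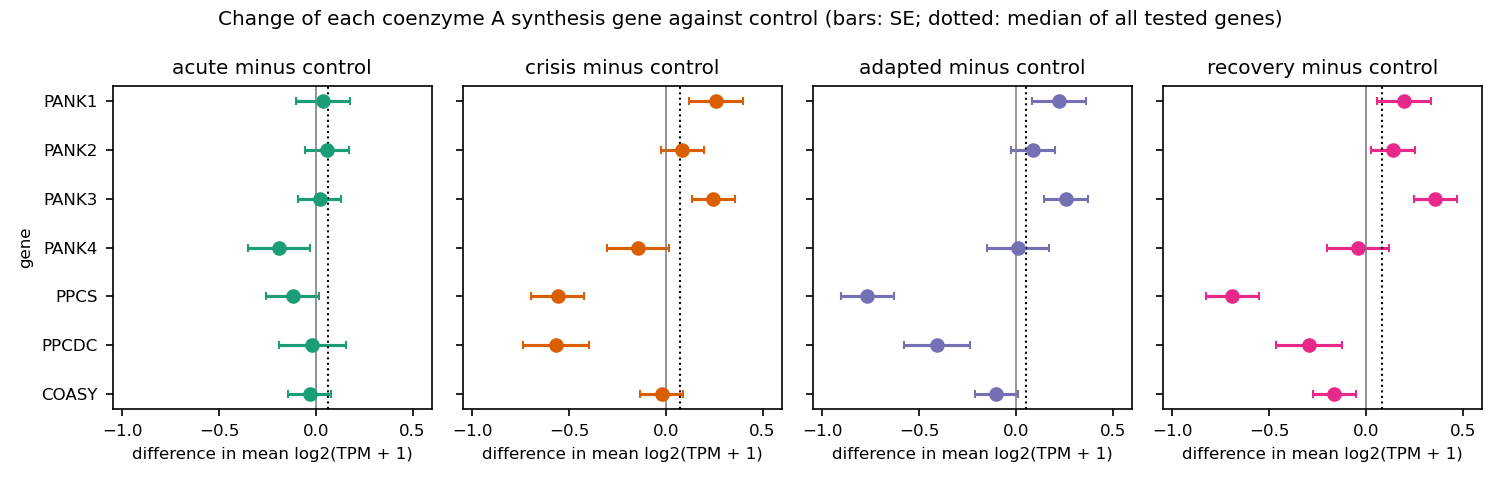
Difference in mean log2(TPM + 1) from control (x axis) for each CoA synthesis gene (y axis) in acute, crisis, adapted and recovery cells, with bars for the SE from limma, a gray line at 0 and a dotted line at the median of all tested genes. PPCS lies at -0.56, -0.77 and -0.69 and PPCDC at -0.57, -0.41 and -0.29 in the last 3 panels.

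At an unadjusted p under 0.05, which 9.19% of tested genes passed in acute against control, 0 of the 6 members other than PPCS passed there. PANK3 (higher) and PPCDC (lower) passed in crisis (11.2% of genes) and again in adapted cells (20.4%), and PANK3 alone in recovery cells (28.6%). In crisis against acute cells PPCS and PPCDC passed, both lower (5.33%). In adapted against acute cells PANK3 was higher (unadjusted p = 0.0485) and PPCDC lower (unadjusted p = 0.0356), where 6.26% of genes passed. In recovery against adapted cells 0 of 6 passed (7.04%).

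Groups without overlap were counted for the 6 members other than PPCS. None was separated between acute and control (12.2% of tested genes were). Between crisis and control PPCDC was (15.5%), between adapted and control PANK3 (23.9%), and between recovery and control PANK1 and PANK3 (28.9%). Between crisis and acute, PPCS included, PPCS, PPCDC and PANK3 were separated (9.66%). The median log2 difference of the 6 members other than PPCS in crisis, adapted and recovery against control was 0.03, 0.05 and 0.05, beside medians of 0.08, 0.05 and 0.08 over all tested genes.

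Ratios of TPM within a library do not depend on a factor common to the whole library. The GC correction, which moves genes unequally, was not applied to them. PPCS relative to the sum of PANK1, PANK2 and PANK3 was 0.394, 0.348 and 0.410 in control and 0.362, 0.305 and 0.366 in acute libraries. Crisis libraries gave 0.250, 0.223 and 0.189, adapted libraries 0.171, 0.167 and 0.225, and recovery libraries 0.167, 0.175 and 0.225. All 9 later libraries lay below the 6 control and acute libraries. This split is no separate support, since PPCS was selected on its adapted and recovery levels. Higher PANK3 also lowers the ratio, and its log2 differences shrank after the GC correction. They went from 0.26 to 0.05 in adapted and from 0.36 to 0.09 in recovery cells. PPCS relative to COASY was 0.410 to 0.595 in control and 0.272 to 0.381 in adapted libraries, without overlap, while recovery libraries (0.244 to 0.478) overlapped with control. PPCS relative to PPCDC was 1.33 to 2.19 in control, 1.47 to 1.91 in crisis, 1.07 to 1.5 in adapted and 1.08 to 1.61 in recovery libraries, with every group overlapping control.

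**Figure D3:**
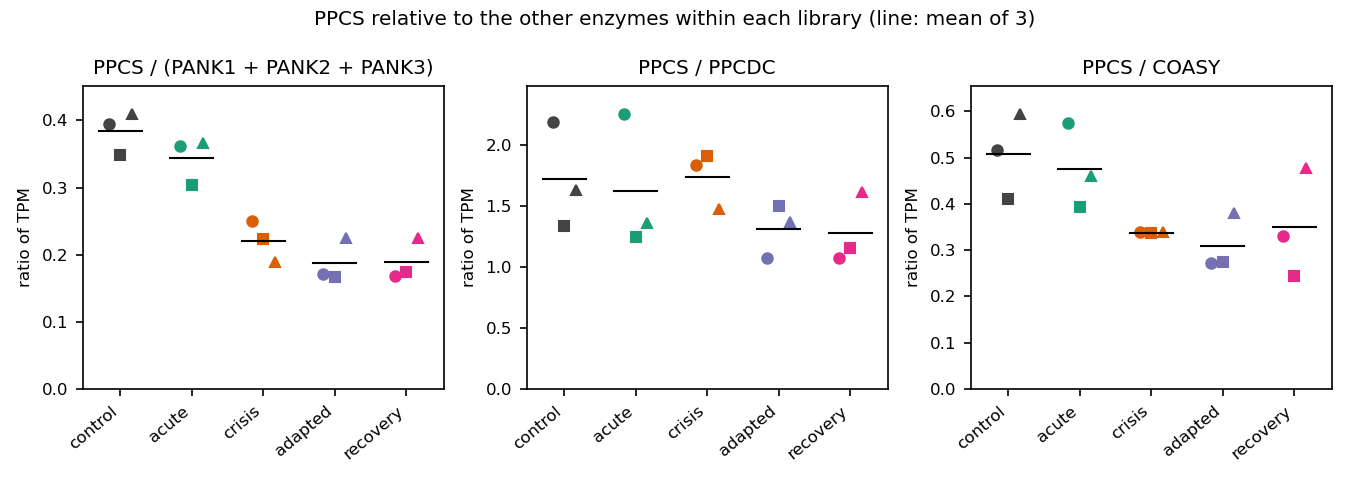
PPCS TPM divided by the summed TPM of PANK1, PANK2 and PANK3 (left), of PPCDC (middle) and of COASY (right) in each library (y axes from 0), by group on the x axis, with lines at the mean of 3. The left ratio is 0.305 to 0.410 in control and acute libraries and 0.167 to 0.250 in the later ones, while the middle ratio overlaps between groups.

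Genes beside PPCS were examined because 2 of them overlap it. ZMYND12, on the opposite strand across the start of PPCS, is listed at 0 TPM in every library. CCDC30, which overlaps the far end of the longest PPCS transcript on the same strand, ranged from 0.627 to 2.05 TPM and averaged 1.08 ± 0.227 in control and 1.5 ± 0.486 in adapted cells (SD, n = 3). Of 37 genes within 500000 bp, 8 averaged at least 5 TPM and could be tested, and 0 of the 8 was called against control in any group (limma). At an unadjusted p under 0.05, 0 of the 8 passed as well, where 9.19% to 28.6% of all tested genes did. The nearest was FOXJ3, a forkhead transcription factor gene 120240 bp away, at 0.08 ± 0.12 in adapted (SE, log2) and 0.03 ± 0.12 in recovery against control. PPIH, a cyclophilin of the spliceosome, stood at 0.18 ± 0.11 and -0.11 ± 0.11, and YBX1, encoding a nucleic acid binding protein, at -0.02 ± 0.08 and -0.05 ± 0.08. P3H1, a collagen prolyl hydroxylase, C1orf50, and SVBP, a partner of vasohibins, lay between -0.09 and 0.22 in both. The neighbours thus ranged from -0.18 to 0.22 where PPCS was at -0.77 and -0.69. PPCS was selected on its levels in these groups and the neighbours were not. That it stands apart from them follows in part from the selection.

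**Figure D4:**
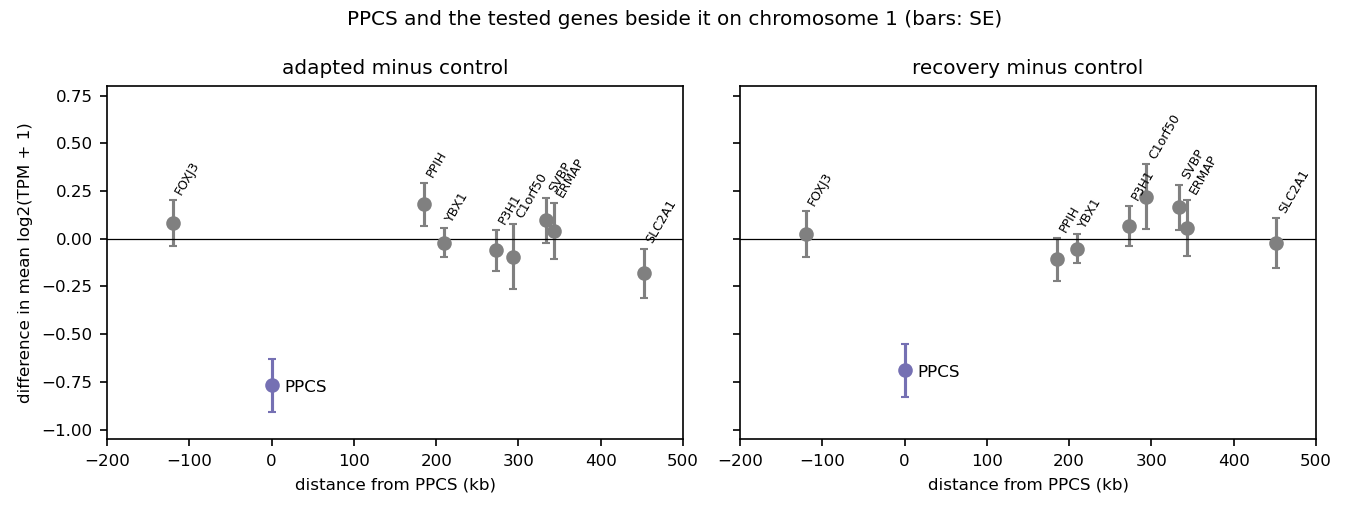
Difference in mean log2(TPM + 1) from control (y axis) against distance from PPCS in kb (x axis) for PPCS and the 8 tested genes beside it, in adapted (left) and recovery cells (right), with bars for the SE from limma. The neighbours lie between -0.18 and 0.22, and PPCS, which was selected on its levels in these groups, at -0.77 and -0.69.

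Genes that use or supply CoA were set beside the pathway as 6 lists with 61 genes, of which 45 averaged at least 5 TPM. Limma called 0 of the 45 in any comparison with control. At an unadjusted p under 0.05, 3 of 45 passed in acute and 4 in crisis cells, 2 and 4 of them higher. In adapted and recovery cells 8 and 14 passed, 2 and 8 of them higher. These are shares of 6.67%, 8.89%, 17.8% and 31.1% of the list genes, beside 9.19%, 11.2%, 20.4% and 28.6% of all tested genes in the same comparisons. The median log2 difference of the 45 genes was 0.05 in adapted and 0.05 in recovery cells, beside 0.05 and 0.08 for all tested genes.

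Of genes that supply pantothenate and cysteine, the substrates joined by PPCS, 4 of 7 could be tested, and their median was -0.04 in adapted and -0.18 in recovery cells. CBS, the first enzyme of the route from homocysteine to cysteine, spanned 6.46 to 7.26 TPM over the control libraries and 4.04 to 4.62 TPM over the adapted ones. The log2 difference was -0.55 ± 0.14 (SE, adjusted p = 0.0669 by limma), and -0.42 after the GC correction. These groups did not overlap, as for 23.9% of tested genes. CBS also lay below control without overlap in acute (-0.37 ± 0.14, adjusted p = 0.474) and recovery cells (-0.31 ± 0.14, adjusted p = 0.157). Crisis overlapped with control. In acute and recovery against control, 12.2% and 28.9% of tested genes did not overlap. CBS stood there at -0.34 and -0.18 after the GC correction. SLC5A6, the transporter that imports pantothenate and biotin, averaged 17.4 ± 1.79 TPM in control and 12.9 ± 3.07 TPM in recovery cells (SD, n = 3). The log2 difference was -0.42 ± 0.16 (SE, adjusted p = 0.115 by limma), and -0.35 after the GC correction. The recovery libraries of SLC5A6 held 9.42, 14.5 and 14.9 TPM in rising order. With single libraries left out, the difference ranged from -0.53 to -0.23. Neither passed the test. VNN1 and VNN2, pantetheinases that release pantothenate, and CTH, which forms cysteine, averaged under 5 TPM.

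Among enzymes that load CoA with fatty acids, ACSL3 and ACSL4, long-chain acyl-CoA synthetases, averaged 61.8 and 50.3 TPM in control and 86.3 and 63.6 TPM in recovery cells (adjusted p = 0.0976 and 0.0957 by limma). ACAT1, a mitochondrial thiolase that acts on acetoacetyl-CoA, averaged 82.9 ± 3.18 TPM in control, 109 ± 12.3 in adapted and 108 ± 22.3 in recovery cells (SD, n = 3; adjusted p = 0.131 and 0.106). SUCLG2, a subunit of succinyl-CoA ligase, averaged 48.4 ± 6.14 TPM in control and 59.9 ± 2.54 in recovery cells (adjusted p = 0.0749), and DLST, of the complex that makes succinyl-CoA, 83.7 TPM in control and 73.1 TPM in recovery cells (adjusted p = 0.145). None of these passed the test. After the GC correction the log2 differences in recovery cells went from 0.49 to 0.23 for ACSL3, 0.34 to 0.06 for ACSL4, 0.35 to 0.17 for ACAT1 and 0.31 to 0.10 for SUCLG2, while DLST stood at -0.19 and -0.21.

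Among enzymes that release CoA from acyl-CoA, ACOT8, a peroxisomal thioesterase, averaged 12.2 ± 0.518 TPM in control and 9.46 ± 0.678 in adapted cells (SD, n = 3; adjusted p = 0.162 by limma). ACOT7, a cytosolic one, averaged 65.1 TPM in control and 50.4 TPM in recovery cells (adjusted p = 0.0986). ACAA2, the thiolase of mitochondrial fatty acid oxidation, averaged 20.3 TPM in control and 16.3 TPM in adapted cells (adjusted p = 0.126). SLC33A1, which carries acetyl-CoA into the endoplasmic reticulum, and AASDHPPT, which transfers the phosphopantetheine arm of CoA to carrier proteins, averaged 15.8 and 29.1 TPM in control and 19.3 and 34.2 TPM in recovery cells (adjusted p = 0.142 and 0.223). After the GC correction the log2 differences in recovery cells went from 0.27 to 0.04 for SLC33A1 and from 0.24 to -0.03 for AASDHPPT. ACOT7 went from -0.35 to -0.13 there, and in adapted cells ACOT8 went from -0.34 to -0.18 and ACAA2 from -0.30 to -0.43.

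The tested genes whose pattern was most like that of PPCS were ranked by Pearson's r of log2(TPM + 1) over the 15 libraries, which is a description without a test since the points share groups and library properties. Highest were CCL2, a chemokine (r = 0.92), RAMAC, the activator of the mRNA cap methyltransferase (0.84), NFKBIA, an inhibitor of NF-kB (0.84), DPP7, a dipeptidyl peptidase (0.84), HHIP-AS1, a non-coding RNA antisense to HHIP (0.83), and CTSZ, a cathepsin (0.83). CCL2 averaged 13.1 ± 2.44 TPM in control (SD, n = 3) and 12.4 ± 2.15 in acute cells, and 7.97 ± 0.402, 3.85 ± 2.71 and 5.28 ± 1.62 TPM in crisis, adapted and recovery cells. No source used here gives the strand setting of the counting, so reads of HHIP-AS1 and HHIP cannot be told apart where they overlap. Lowest were ALX1, a homeobox gene (r = -0.88), SP140L (-0.84) and SMN1 (-0.83), the last with a near-identical copy, SMN2, between which reads can be split. Of the other members, PPCDC had the highest correlation with PPCS (r = 0.55, rank 398 of 10195) and PANK3 the lowest (r = -0.66, rank 10063), while COASY stood at 0.07.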

How the data were processed

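Per the study's methods, the libraries were prepared together from mRNA, sequenced as single-end reads and quantified with Kallisto on hg38, and the authors deposited TPM per gene. TPM gives no depth, so no counting interval was computed and no count model was fitted. Columns of the authors' own DESeq2 comparisons (log2 fold changes and p-values) were not used. Of 60603 entries, 45 pseudoautosomal copies were dropped. Positions and GC content come from GENCODE release 44 (60261 identifiers matched), and sequences from RefSeq (GRCh38.p14).

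Values were analysed as log2(TPM + 1). Genes averaging 5 TPM or more over all libraries (10196) were fitted with limma 3.58.1 in R 4.3.3 (eBayes with trend, 5 groups, 15 libraries), 2-sided, with Benjamini-Hochberg adjustment and calls at an adjusted p under 0.01. All 7 members passed this filter. Group values are given as mean ± SD over 3 libraries, which the study describes as independent. The fit was tested on data simulated with the observed means and spreads, for adapted against control. It called 33 of 67 genes shifted by 0.5 (log2), 62 of 67 shifted by 1 and 66 of 66 shifted by 2. Of 9996 genes without a shift, 2 were called. Noise was drawn for each gene independently, whereas genes in the real libraries shared trends with GC content. Many more genes were shifted there than the 5 called in adapted against control, which loosens the adjusted threshold. The simulated shares may thus exceed those reached in the data, and shifts near 0.5 can go uncalled.

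The members and lists were chosen with earlier results of these data known. Genes named are the 7 members, CCNE1, called list members and the 2 of each list with the smallest p in adapted or recovery against control, the 6 tested genes most and 3 least correlated with PPCS, and the nearest 6 tested neighbours within 500000 bp. Markers, overlapping genes and untested list genes were named after their values were seen.

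Alternatives were pseudocounts of 0.1 and 5, a minimum of 1 TPM or none, median-of-ratios scaling, a loess on GC content (span 0.3, 10185 genes), a replicate block with and without it, no variance trend, a threshold of 0.05, the log2 ratio of mean TPM, fits of the compared libraries alone and each library left out. Leaving out 45S-like RNA (4 entries) was added after seeing the data. Python 3.11.15, pandas 2.3.3, scipy 1.17.1 and matplotlib 3.10.9 were used.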

Additional observations from a re-analysis of the deposited data

How the results depend on the processing

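PPCS kept its direction in crisis, adapted and recovery against control and in crisis against acute cells under every alternative run. Its shifts were smaller than the SD between replicates pooled over the groups, though not smaller than that of every single group. Over the other settings its log2 difference ranged from -0.87 to -0.61 in adapted, -0.84 to -0.55 in recovery and -0.65 to -0.45 in crisis against control, and from -0.47 to -0.35 in crisis against acute cells. With single libraries left out, the ranges were -0.88 to -0.69, -0.83 to -0.57, -0.63 to -0.51 and -0.52 to -0.39. The adjusted p in crisis against acute cells stayed above 0.01 in all of these. Of the 6 members other than PPCS, 0 were called in every setting and comparison run.

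The number of all genes called in adapted against control was 5, and 15 with the GC correction, 12 with the block added, 11 with median-of-ratios scaling or without 45S-like RNA, 10 with no filter, 8 with the compared libraries alone and 55 at a threshold of 0.05. In recovery against control it was 4, and 1 with the GC correction, median-of-ratios scaling, a minimum of 1 TPM, no variance trend or the compared libraries alone, and 113 at a threshold of 0.05. With single libraries left out it was 4 to 9 in adapted (9 without control replicate 3) and 1 to 5 in recovery cells (1 without control replicate 2 or recovery replicate 2 or 3). Without control replicate 3, 7 genes were called in crisis against control. With no filter, 5, 3 and 8 genes were called in adapted against acute, crisis against acute and recovery against adapted cells, where the main counts were 2, 1 and 3. The GC correction gave 3 in each of these, and the threshold of 0.05 gave 4, 1 and 3. In acute against control, 3 rather than 5 were called with a pseudocount of 5, and in crisis against control, 7 rather than 4 at a threshold of 0.05. The cause was not tested. Libraries with the same replicate number did not deviate together in every pair (correlations from -0.44 to 0.34), and the main fit did not pair them. Between recovery and adapted libraries these correlations were 0.20, 0.04 and 0.21 for replicates 1 to 3. The highest with another number were 0.08, 0.02 and -0.10. Whether same-numbered libraries share a culture was not tested. With the replicate block alone, 6 genes were called in adapted, 3 in recovery, 5 in acute and 5 in crisis against control, and 0 of the 6 members other than PPCS.

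Of the 6 genes most like PPCS, 3 stayed among the highest 6 after the GC correction and 1 over the 5 group means. TPM holds no depth, so a member's counting error is unknown.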
